A study of Homo sapiens with 8 samples.

Results

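Binding of the RNA-binding protein RBPMS was examined on the transcripts of 8 genes of NODAL, activin and BMP signalling in human embryonic stem cells. The genes were LEFTY1, NODAL, ACVR1B, TGFBR1, BMPR1A, SMAD2, SMAD5 and SMAD4. A peak belonged to a gene when it overlapped the gene's window on the gene's strand, with windows on build hg19 given to the nearest kb. This placed 185 peaks in the 8 genes, of 194003 listed by 4 eCLIP libraries. The libraries of HUES6 were 4 eCLIP libraries, immunoprecipitated (IP) with an antibody specific for RBPMS, set against 4 input libraries with no antibody. HUES6 is an established line of embryonic stem cells, labelled WT and control in every library, grown in FTDA medium, whose composition the labels do not give, and crosslinked with UV light at 400 mJ/cm2. The series holds no library depleted of RBPMS, so a peak shows RNA recovered with the antibody over input and nothing about loss of the protein. The label of embryonic stem cells could not be set against marker genes, because the lists hold enrichment over input and no transcript levels.

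Ligands of this family bind pairs of type I and type II receptor kinases at the cell surface. NODAL and activin act through the type I receptor ACVR1B, also called ALK4, and TGF-beta acts through TGFBR1, also called ALK5. Both phosphorylate SMAD2. BMPs act through receptors such as BMPR1A, also called ALK3, which phosphorylate SMAD5 and its relatives. Activated SMADs join SMAD4 and enter the nucleus. LEFTY1 is a secreted antagonist of NODAL and one of its targets. In human embryonic stem cells activin and NODAL signalling is known to sustain pluripotency, and BMP signalling to promote differentiation. RBPMS carries an RNA recognition motif and is known to bind RNA elements with paired CAC triplets.

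Each peak carries the authors' log2 fold of IP over input and the authors' −log10 p of that comparison. A peak was called enriched with a log2 fold of at least 3, which is 8-fold, and a −log10 p of at least 3. A region was called reproducible when enriched peaks of at least 3 of the 4 libraries overlapped in it. Whole read numbers behind a peak were worked out from its fold and p, and an input of 0 reads cannot be told apart from 1 read. Libraries 1, 2, 3 and 4 listed 25759, 118375, 20254 and 29615 peaks. Over 311 paired peaks, the difference between libraries 3 and 4 was no larger than sampling noise (chi-square 0.926 per degree of freedom, p = 0.82). The other 5 pairs had 3.21 to 4.82 per degree of freedom. Libraries 3 and 4 were counted as 1 sample. Means are therefore over n = 3 samples. The labels do not say whether cultures were separate, and the spread between samples may be technical.

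Only 1 of the 185 listed peaks was enriched, and it lay in ACVR1B. By library, 0 of 15, 0 of 140, 0 of 8 and 1 of 22 listed peaks in the 8 genes were enriched, against 15.9%, 5.38%, 12.6% and 12.7% of all listed peaks. Counts of 0 allow shares of up to 20.4%, 2.67% and 32.4% in libraries 1, 2 and 3 (upper ends of Wilson 95% intervals). The share in library 4 was 4.55% (Wilson 95% interval 0.81 to 21.8). These limits cover counting error only and take peaks as independent, which peaks of 1 transcript are not. The mean share was 0.76% ± 1.31 in the 8 genes and 11.3% ± 5.40 over all listed peaks (SD, n = 3 each). No region of the 8 genes was reproducible, and none had enriched peaks of even 2 libraries. Without library 4 the count of enriched peaks was 0. Codes in the labels put libraries 1 and 2 in one set and libraries 3 and 4 in another, with 0 enriched peaks in the first set and 1 in the other.

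Weaker evidence of enrichment was spread over more genes. At an unadjusted p of at most 0.05 with a log2 fold above 0, 8 of 15, 11 of 140, 2 of 8 and 4 of 22 peaks passed in libraries 1 to 4, against 68.7%, 13.8%, 34.6% and 28.4% of all listed peaks. These 25 peaks made up 53.3%, 7.86%, 25% and 18.2% of the peaks in the 8 genes, which was below the share of all listed peaks in each of the 4 libraries. After Benjamini-Hochberg adjustment of the authors' p over all listed peaks of a library, 4, 1, 1 and 1 peaks passed in libraries 1 to 4, against 36.9%, 8.96%, 19.3% and 19.4% of all listed peaks. No test was made between the 8 genes and the other peaks, since the genes were chosen as a list and peaks of 1 transcript are not replicates. Whatever the p, 7, 3, 2 and 2 peaks of the 8 genes reached a log2 fold of 3 in libraries 1 to 4 (46.7%, 2.14%, 25% and 9.09%), against 54.2%, 7.16%, 28.2% and 19.1% of all listed peaks. Median log2 folds in libraries 1 to 4 were 2.25, 1.06, 2.67 and 2.13 for the 8 genes and 3.25, 1.06, 2.67 and 2.13 for all listed peaks. The shared medians are folds of a few whole reads, such as 2 IP reads per input read in library 2.

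**Figure D1:**
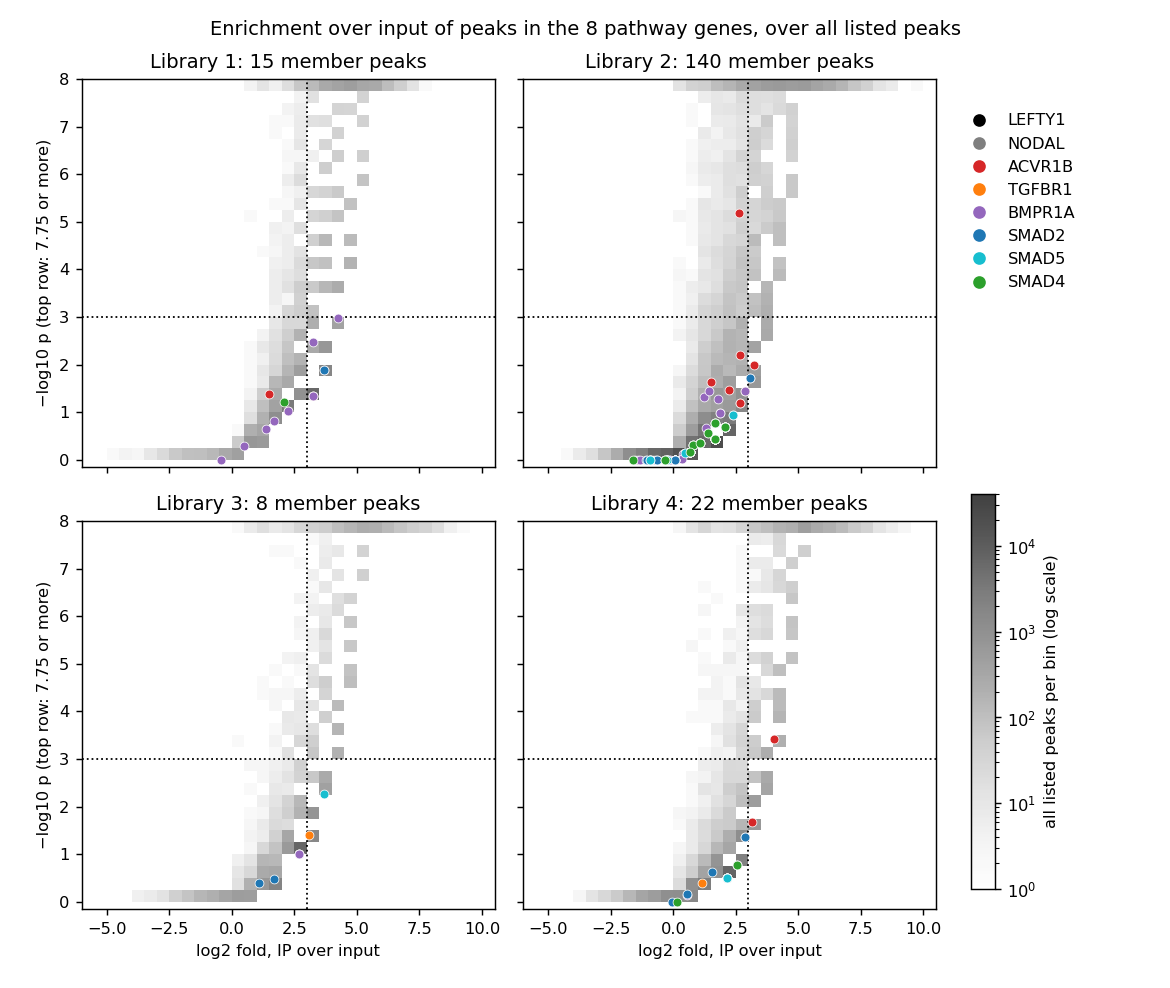
Each panel plots 1 eCLIP library, with the log2 fold of IP over input on the x axis and the −log10 p on the y axis; coloured points are the peaks of the 8 genes, which overlap where read numbers are equal, and grey squares count all listed peaks on a log scale. Dotted lines mark the thresholds of 3 and 3, and the upper right area holds only the ACVR1B peak of library 4 among the 185 peaks.

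Among the ligand and its antagonist, NODAL had no listed peak in any library and LEFTY1 had 1. The NODAL window, 11 kb on the minus strand of chromosome 10, and the LEFTY1 window, 4 kb on the minus strand of chromosome 1, are the shortest of the 8. At the density of listed peaks in the other 6 genes, the NODAL window would have held 3.27 peaks in library 2 and 0.33, 0.19 and 0.51 in libraries 1, 3 and 4. The corresponding numbers for LEFTY1 were 1.19 in library 2 and 0.12, 0.068 and 0.19 in libraries 1, 3 and 4. Transcript levels were not analysed here, so low RNA and low binding cannot be told apart for NODAL and LEFTY1, and fewer expressing cells cannot be told apart from less RNA per cell. The LEFTY1 peak came from library 1, at chromosome 1, 226074082 to 226074117, and it rested on 3 IP reads over 1 input read, with a log2 fold of 3.25 and a −log10 p of 1.35. Libraries 2, 3 and 4 listed nothing there.

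The receptor ACVR1B held both peaks of the 185 with a −log10 p of at least 3, although the highest log2 fold of the 185, 4.25, was in BMPR1A. Its window on the plus strand of chromosome 12 held 4, 14, 1 and 2 listed peaks in libraries 1 to 4. At an unadjusted p of 0.05, 3 of 4, 6 of 14, 0 of 1 and 2 of 2 of them passed in libraries 1 to 4, against 5 of 11, 5 of 126, 2 of 7 and 2 of 20 in the other 7 genes and 68.7%, 13.8%, 34.6% and 28.4% of all listed peaks. The share was higher in ACVR1B in libraries 1, 2 and 4 and lower in library 3, where it had 1 peak. None of its 21 peaks had a log2 fold below 0, against 29 of 164 in the other 7 genes, 27 of which were in library 2. Over all listed peaks, 731 of 25759, 18444 of 118375, 868 of 20254 and 2196 of 29615 were below 0 in libraries 1 to 4. Such folds were a minority of every list, so 0 of 21 need not set ACVR1B apart. In library 2, the longest list, its median log2 fold was 2.15 over 14 peaks and that of the other 7 genes was 0.80 over 126 peaks. In library 4 the medians were 3.56 over 2 peaks and 2.13 over 20 peaks, and in library 1 they were 2.75 over 4 peaks and 2.25 over 11 peaks. Library 3 listed 1 ACVR1B peak at 2.67, the same value as the median of the other 7 genes over 7 peaks. ACVR1B was singled out after these values were seen, so they describe it and test nothing.

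Peaks of ACVR1B gathered at the 3′ end of the window. The last 3 kb, 6.52% of the window, held 11 of its 21 listed peaks (52.4%) and 9 of the 11 with an unadjusted p of at most 0.05. Every library listed at least 1 peak there, with 2, 6, 1 and 2 peaks in libraries 1 to 4. In the other genes with more than 1 listed peak, the last 3 kb held 3 of 17 peaks in TGFBR1, 1 of 74 in BMPR1A, 1 of 40 in SMAD2, 3 of 17 in SMAD5 and 0 of 15 in SMAD4. TGFBR1 and SMAD5 thus also held more than the window share, 17.6% of peaks in 6% and 5.88% of the window. BMPR1A, SMAD2 and SMAD4 held less than theirs. In the first 2 kb, 4.35% of its window, ACVR1B held 4 of its 21 peaks. The share of peaks there was also above the window share in TGFBR1, BMPR1A, SMAD2, SMAD5 and SMAD4. The length of 3 kb was chosen after the positions were seen. Whether the bases of the last 3 kb are exon or 3′ untranslated region was not read from an annotation, since none of build hg19 was used here.

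The enriched peak was listed by library 4 at chromosome 12, 52389088 to 52389217, a width of 130 bases whose centre lay 1.85 kb from the end of the window. It held 11 IP reads over 1 input read, with a log2 fold of 4.0, a −log10 p of 3.42 and a Benjamini-Hochberg adjusted p of 0.003 over the list of library 4. Its fold was above that of 90.5% of all listed peaks of library 4 and of 25.3% of that library's enriched peaks. The same place was listed by library 2 with 19 IP reads over 7 input reads, and by library 1 with 8 IP reads over 9 input reads. Their log2 folds were both 1.5, with −log10 p of 1.63 and 1.39, so both folds were above input but far below the 8-fold threshold. Their Benjamini-Hochberg adjusted p were 0.197 and 0.066 over the lists of libraries 2 and 1, higher than that of library 4. Their folds were above those of 55.7% and 13.7% of the peaks in these lists, so libraries 2 and 1 gave weak support. Library 3, which could not be told apart from library 4 over paired peaks, listed no peak there. Over 3 samples the log2 fold was 2.33 ± 1.45 (SD, n = 3), a spread that spans the threshold. In this mean library 4 alone stood for libraries 3 and 4, since library 3 listed no peak there.

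A second region of ACVR1B, at chromosome 12, 52390401 to 52390564, was listed by libraries 2, 3 and 4 and had closer folds. In library 2 it rested on 35 IP reads over 6 input reads, the most IP reads of the 141 peaks in the 8 genes whose reads could be worked out, with a log2 fold of 2.61 and a −log10 p of 5.19. Libraries 3 and 4 had 3 and 6 IP reads over 1 input read each, with log2 folds of 2.67 and 3.13 and −log10 p of 1.0 and 1.68. The 3 values lay within 0.52 of each other on the log2 scale. With libraries 3 and 4 counted as 1 sample, their mean was 2.75 ± 0.21 (SD, n = 2). The value of library 3 was also the median of its whole list. Library 1 listed a neighbouring peak at 52390569 to 52390625, with 3 IP reads over 2 input reads and a log2 fold of 2.25. The 8-fold threshold leaves out the peak of library 2, although its −log10 p was the highest among the 185 peaks. Another shared place lay near the 5′ end, 1.25 kb into the window, where library 1 had 3 IP reads and library 2 had 6 IP reads over 1 input read each, with log2 folds of 3.25 and 2.65.

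**Figure D2:**
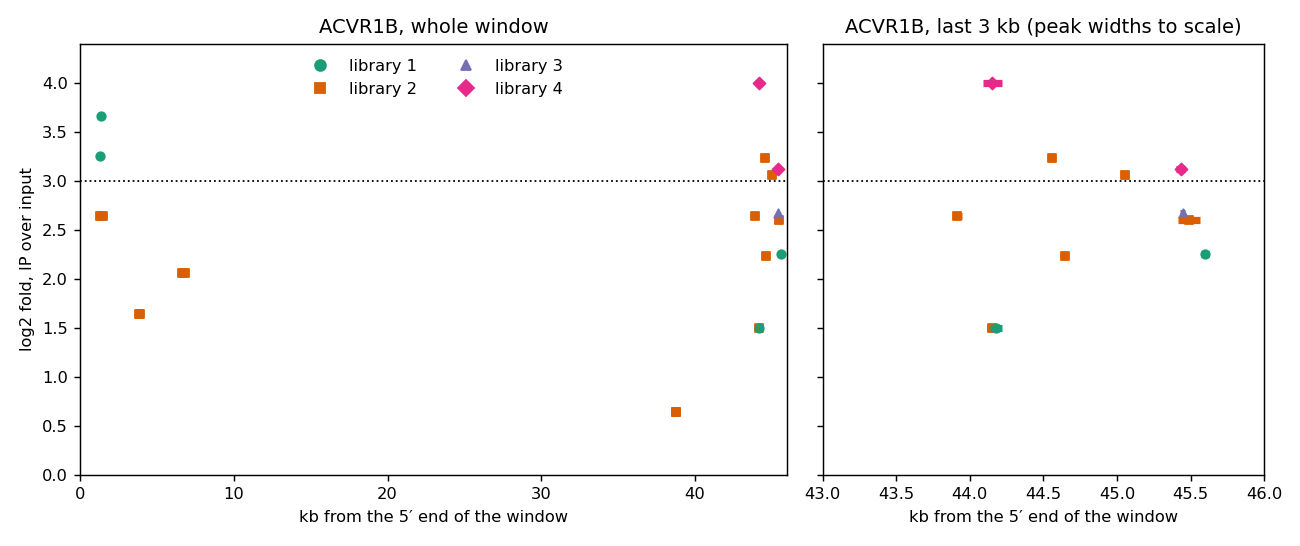
Listed peaks of ACVR1B are drawn by distance in kb from the 5′ end of the window (x axis) and log2 fold of IP over input (y axis), for the whole 46 kb on the left and the last 3 kb on the right, with bars for peak width and symbols for the 4 libraries. The last 3 kb hold 11 of 21 peaks, and the dotted line marks the log2 threshold of 3.

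TGFBR1, the TGF-beta receptor, had 17 listed peaks in its 50 kb window on the plus strand of chromosome 9 and none that was enriched. Libraries 1 to 4 listed 0, 11, 1 and 5 of them. Its highest log2 folds were 2.87 in library 2 with 7 IP reads, 3.09 in library 3 with 4 IP reads and 2.54 in library 4 with 4 IP reads, each over 1 input read. These peaks lay at different places. The single region shared by 2 libraries, at 101867412 to 101867531, 0.47 kb into the window, had a log2 fold of -0.85 in library 2 and 1.13 in library 4. The signs differed, but library 4 rested on 3 IP reads over 2 input reads, with a −log10 p of 0.39. The fold of library 2, below 0, carries no p.

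BMPR1A, the BMP receptor, had the most listed peaks, 74 in a window of 169 kb on the plus strand of chromosome 10, with 8, 58, 3 and 5 in libraries 1 to 4. None was enriched, and 14 had a log2 fold below 0. The peak nearest to the thresholds was in library 1 at 88545955 to 88546007, with 6 IP reads over 1 input read, a log2 fold of 4.25 and a −log10 p of 2.98, just below the threshold of 3. Library 2 listed an overlapping peak with 7 IP reads over 2 input reads, at a log2 fold of 1.87. Libraries 3 and 4 did not list it. One BMPR1A region was listed by 3 libraries, at 88607538 to 88607619, 91.6 kb into the window. There libraries 1, 2 and 4 had 6, 10 and 5 IP reads over 2, 3 and 1 input reads, and log2 folds of 3.25, 1.80 and 2.86 (mean 2.64 ± 0.75, SD, n = 3). Their −log10 p were 2.48, 1.28 and 1.35, so libraries 1 and 4 passed an unadjusted p of 0.05, library 2 missed it, and none was enriched. Library 3 listed no peak there, so in the mean library 4 alone stood for libraries 3 and 4.

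SMAD2, which carries NODAL and activin signals, had 40 listed peaks in 99 kb on the minus strand of chromosome 18, with 1, 30, 2 and 7 in libraries 1 to 4. Of these 9 had a log2 fold below 0, and 3 passed an unadjusted p of 0.05. Its most enriched shared region, at 45425565 to 45425659, had a log2 fold of 3.67 in library 1, from 4 IP reads over 1 input read, and of 2.86 in library 4, from 5 IP reads over 1 input read. The −log10 p were 1.88 and 1.35. Library 2 listed no peak there although it listed 30 elsewhere in the window. Its own highest peak lay at 45454694 to 45454773, with 8 IP reads over 1 input read and a log2 fold of 3.06, and no other library listed that place.

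SMAD5, which carries BMP signals, had 17 listed peaks in 51 kb on the plus strand of chromosome 5, with 0, 15, 1 and 1 in libraries 1 to 4. The highest was in library 3, at 135496682 to 135496762, with 6 IP reads over 1 input read, a log2 fold of 3.67 and a −log10 p of 2.26. Library 2 listed overlapping peaks, the higher of which had 8 IP reads over 6 input reads and a log2 fold of 0.48. Library 4 listed no peak there.

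SMAD4, the partner that both branches share, had 15 listed peaks in 56 kb on the plus strand of chromosome 18, with 1, 12, 0 and 2 in libraries 1 to 4. None passed an unadjusted p of 0.05 and none overlapped a peak of another library. Its highest log2 folds were 2.08 in library 1, 2.06 in library 2 and 2.54 in library 4, each from 4 IP reads over 3, 1 and 1 input reads. The mean over samples was 2.23 ± 0.27 (SD, n = 3), with library 4 alone standing for libraries 3 and 4. For comparison, the highest log2 fold among all listed peaks, whatever their p, averaged 3.41 ± 0.23 in ACVR1B, 3.30 ± 0.83 in BMPR1A and 3.0 ± 0.70 in SMAD2 (SD, n = 3 each). The order of ACVR1B, BMPR1A and SMAD2 rests on gaps smaller than the spread of BMPR1A and SMAD2 between samples.

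Of the places listed in the 8 genes, most came from 1 library. Merging all listed peaks of the 8 genes gave 166 regions, of which 14 (8.43%) were listed by at least 2 libraries, 3 (1.81%) by at least 3 and none by 4. Over all listed peaks 13% of 154731 regions were listed by at least 2 libraries, 4.94% by at least 3 and 2.19% by 4. By library, 10 of 15, 14 of 140, 2 of 8 and 7 of 22 peaks of the 8 genes lay in a shared region (66.7%, 10%, 25% and 31.8%), against 47.1%, 17.8%, 51.9% and 52.8% of all listed peaks. The share was thus higher in the 8 genes in library 1 and lower in libraries 2, 3 and 4. The 14 shared regions were 6 in BMPR1A, 3 each in ACVR1B and SMAD2, and 1 each in TGFBR1 and SMAD5. Library 2 took part in 13 of them, and its log2 fold was below 0 in 5. In 4 of the 14, which are 2 in ACVR1B and 1 each in BMPR1A and SMAD2, at least 2 libraries passed an unadjusted p of 0.05. No shared region had a log2 fold of at least 3 in 2 libraries. Neither count was made over the shared regions of all listed peaks, so whether they are unusual was not tested.

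**Figure D3:**
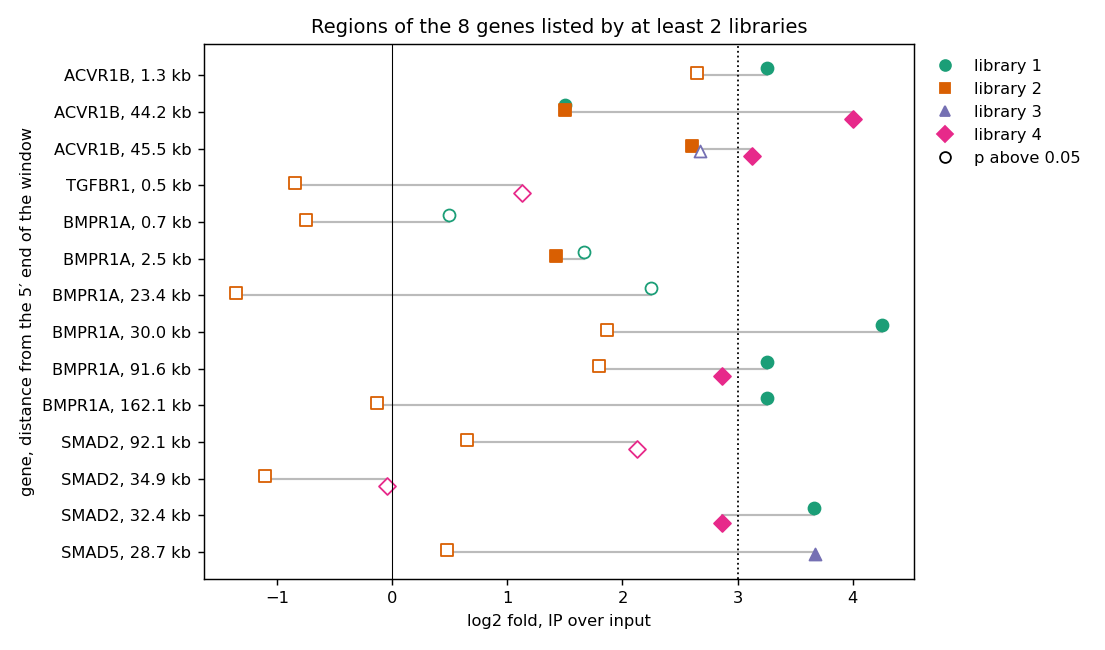
The 14 regions listed by at least 2 libraries are drawn down the page, named by gene and distance from the 5′ end of the window, with the log2 fold of IP over input on the x axis and 1 symbol per listing library, nudged vertically to keep them apart. Filled symbols have an unadjusted p of at most 0.05, and the dotted line marks a log2 fold of 3. Library 2 has the lowest fold in 12 of the 13 regions it listed. Equal reads give unlike folds: 3 IP reads over 1 input read are a log2 fold of 3.25, 1.65, 2.67 and 2.13 in libraries 1 to 4.

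Read numbers set how far these values can be read. Of the 185 peaks, 29 had a log2 fold below 0 and carry no p. Another 15 had a log2 fold above 0 but read numbers that could not be worked out. Of the other 141, 73 rested on 3 IP reads and 79 had at most 1 input read. With 1 input read, the thresholds needed 7, 13, 8 and 10 IP reads in libraries 1 to 4. Only 1 of 14, 4 of 99, 0 of 8 and 1 of 20 peaks of the 8 genes had that many (7.14%, 4.04%, 0% and 5%), against 20.3%, 13.6%, 15.2% and 16.4% of all listed peaks with known reads. The shares of all listed peaks leave out peaks whose p lies at its ceiling, which have no known reads. Among the peaks with enough reads, 0 of 1, 0 of 4 and 1 of 1 were enriched in libraries 1, 2 and 4, against 61.5%, 36% and 68.5% of all such listed peaks, and in library 3 the 8 genes had none with enough reads, against 72.1% enriched of all such listed peaks. The remaining 135 peaks had fewer IP reads than any enriched call needs. Few IP reads can come from low depth, little RNA or little binding, and these cannot be told apart here. Median IP reads per peak were 4, 3, 3 and 3 in the 8 genes and 4, 4, 3 and 4 over all listed peaks.

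**Figure D4:**
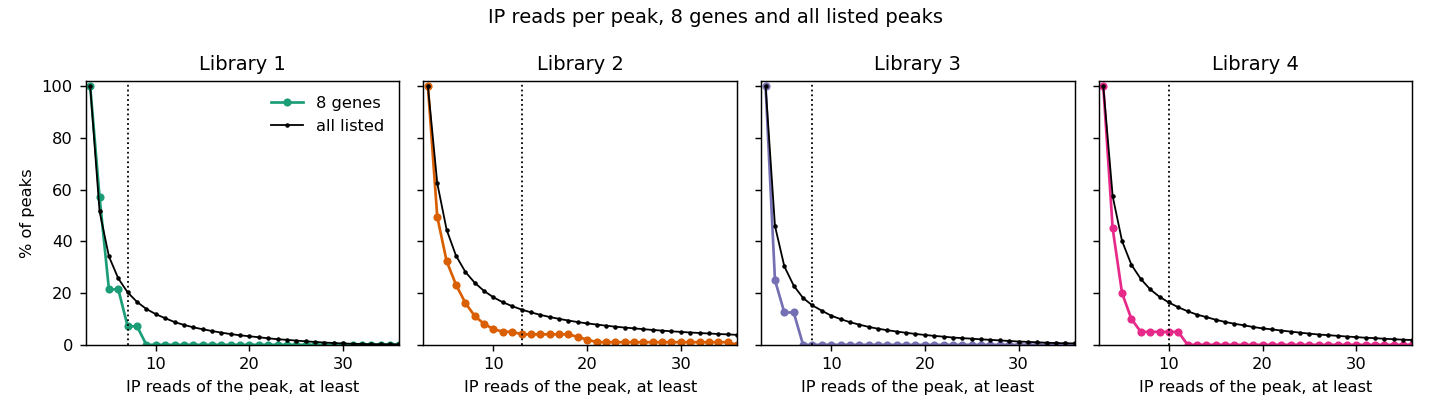
For each library the y axis gives the percent of peaks with known reads that have at least the number of IP reads on the x axis, in colour for the 8 genes and in black for all listed peaks. The dotted lines stand at 7, 13, 8 and 10 reads, the fewest that meet the thresholds over 1 input read, and the coloured curves lie below the black ones there in all 4 libraries.

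The order of the 6 longer genes by density of listed peaks differed between libraries. In library 2 they numbered 0.30 per kb in ACVR1B, 0.22 in TGFBR1, 0.34 in BMPR1A, 0.30 in SMAD2, 0.29 in SMAD5 and 0.21 in SMAD4. In library 1 densities ran from 0.087 per kb in ACVR1B to 0 in TGFBR1 and SMAD5, and in library 4 from 0.10 per kb in TGFBR1 to 0.020 in SMAD5. Over these 6 genes together libraries 1 to 4 had 0.030, 0.30, 0.017 and 0.047 listed peaks per kb. Peaks of the 8 genes made up 0.058%, 0.12%, 0.039% and 0.074% of the lists of libraries 1 to 4. On the other strand of the same windows no peak was listed in any library, so the listed peaks kept to the strand of the genes. Widening each window by 2 kb at both ends added no listed peak.

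**Figure D5:**
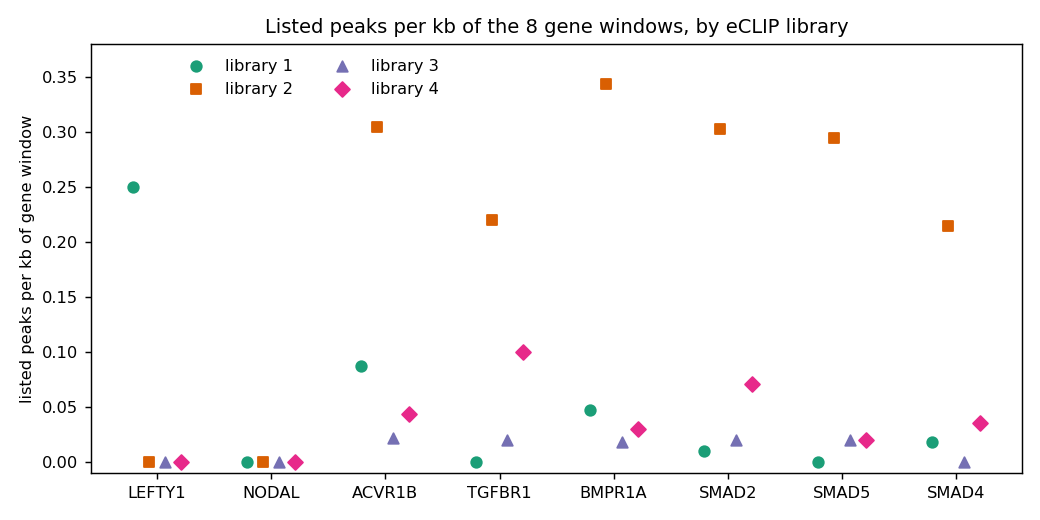
Listed peaks per kb of gene window (y axis) are shown for the 8 genes (x axis), with 1 symbol for each of the 4 eCLIP libraries. Library 2 lies highest in the 6 longer genes, between 0.21 and 0.34 per kb, NODAL is at 0 in all libraries, and LEFTY1 has its single peak in library 1.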

How the data were processed

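Per the labels' protocols, HUES6 lysates were processed by eCLIP and sequenced as paired ends of 75 nt. The authors deposited 1 peak list per eCLIP library, with a −log10 p and a log2 fold of immunoprecipitation over input per peak, with hg19 coordinates, per the submitters' processing notes. No source used here names the aligner or peak caller, or says which input library each list was compared with. Input libraries entered only through these values. Means and SDs of log2 folds across lists describe agreement only.

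Read numbers were worked out from each pair of deposited log2 fold and −log10 p. The fold equals a ratio of whole reads times a depth factor, input depth over that of the immunoprecipitate, of 3.18, 1.04, 2.12 and 1.46 for libraries 1 to 4. The p matched Fisher's exact test where a read number or its expectation was below 5, and otherwise a chi-square test with continuity correction, to a tolerance of 0.003 of the value. Unique reads were found for 90.4% to 99.4% of peaks with log2 above 0 and p below its ceiling. The recovery was also run on simulated reads, with p from the same formula and the true depth factor supplied. That run cannot check whether the formula or the depth factors hold for the authors' lists. A log2 fold below 0 carries a −log10 p of 0 in the authors' lists. Libraries were compared over peaks with at least 80% overlap and 40 reads. Total depth per library is unknown.

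Gene windows came with the gene list. Gene symbols matched RefSeq names for 8 of 8 genes. Genes and lists were chosen with earlier results of these data known. All 8 genes are named. A gene with shared regions is given with that of most libraries and then highest mean log2 fold. NODAL, LEFTY1 and SMAD4 had no shared region. Further peaks were named after their values were seen. Other pathway genes, marker genes and sequences under the peaks were not analysed here, since no genome or annotation of build hg19 was used. Python 3.11.15, pandas 2.3.3, numpy 2.4.6 and scipy 1.17.1 were used.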

Additional observations from a re-analysis of the deposited data

Results flagged for a closer look

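Of 13 quantities compared over the 4 libraries taken singly, 7 had 1 library far from the others by Dixon's criterion, against about 0.65 expected from chance, which picks out about 1 in 20. The 13 are not independent. Library 2 listed 140 peaks in the 8 genes, against 8 to 22 in the others, and it also stood apart with 58 peaks in BMPR1A, 15 in SMAD5 and 12 in SMAD4. Its whole list was the longest as well, with 118375 peaks. The part of read depth in these counts was not tested. Library 4 stood apart with the 1 enriched peak, 4.55% of its listed peaks in the 8 genes, and library 1 with the 1 listed peak of LEFTY1. Such counts of 0 and 1 always meet the criterion, so the number expected from chance does not apply to them.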

How the results depend on the processing

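No paired analysis was possible because no values of single input libraries, which carry the same replicate numbers, were used here. The 1 enriched peak became 0 with a −log10 p of at least 5 and 2 with a log2 fold of at least 1, the second being the ACVR1B peak of library 2. It was 0 on the other strand, 0 without libraries 3 and 4 together, and between 0 and 1 with each library left out, being 0 without library 4, which lists it. The share of enriched peaks, 0.76%, was 27.6% for an unadjusted p of at most 0.05 and 12.0% for an adjusted one, at any fold, and 0 to 1.52% with each library left out. At both settings of p the share in the 8 genes was below that of all listed peaks in each of the 4 libraries. Reproducible regions stayed at 0, in 0 genes, with a looser fold, 2 of 4 libraries, 2 of 3 samples and each library left out. They were 3, in 2 genes, when all listed peaks were merged. The mean of median log2 folds, 1.90, was 3.30 over the 2 peaks with a −log10 p of at least 3, and 1.73 to 2.33 with each library left out. The highest log2 fold of ACVR1B among peaks with a −log10 p of at least 3, 3.30 over 2 samples, was 2.61 to 4.0 with each library left out. These 2 samples were library 2 and library 4, which alone stood for libraries 3 and 4. Of 141 peaks with known reads, 135 had too few IP reads to meet the thresholds, and the part of depth in this was not tested. The settings at p of 0.05, the widened windows, the merging of all listed peaks, the highest fold at any p, the 20-read pairing and the removal of libraries 3 and 4 were chosen after seeing the data.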
